A study of Mus musculus with 5 samples.

Results

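The IFIT family (interferon-induced proteins with tetratricopeptide repeats) is described here across sorted peritoneal macrophages of mutant and wt mice. The members were taken by gene symbol from the deposited table, which holds 30478 genes, and all 6 were found: Ifit1, Ifit1bl1, Ifit1bl2, Ifit2, Ifit3 and Ifit3b. The mutant group comprises 2 libraries from 8-week female C57BL/6 mice carrying Samhd1 del/del together with cGAS-GFP ki/ki, that is, both alleles of Samhd1 deleted and both alleles of cGAS carrying the cGAS-GFP knock-in. The wt group comprises 3 libraries from C57BL/6 mice, of which wt 1 was a 13-week male, wt 2 a 13-week female and wt 3 a 9-week female. All wt mice were older than the mutants, so age and genotype cannot be told apart. By its title, the study concerns the role of cGAS and STING in the activation of the RNA sensor MDA5 when SAMHD1 is missing. No library carried only one of these genetic changes, so their effects cannot be told apart. The labels do not say which cell type each deletion acts in, how many clones or founders were used, or whether animals were pooled.

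IFIT proteins are cytosolic RNA-binding proteins built from tetratricopeptide repeats, and they are scarce until a cell senses virus or interferon. Type I interferon signals through its receptor, the kinases JAK1 and TYK2 and the ISGF3 complex, which contains STAT2 and IRF9 and binds interferon-stimulated response elements in IFIT promoters. IRF3 can induce the same genes directly after virus sensing. IFIT1 binds RNA ends whose cap lacks 2′-O-methylation and blocks their translation, whereas in human cells IFIT2 and IFIT3 assemble with IFIT1.

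All 6 genes lie in 1 cluster of 99316 bases on mouse chromosome 19 (GENCODE M21, GRCm38, chr19:34550694-34650009). In chromosome order they are Ifit2 (34550694 to 34576419, plus strand), Ifit3 (34583531 to 34588731, plus), Ifit1bl1 (34592891 to 34601956, minus), Ifit3b (34607970 to 34613401, plus), Ifit1bl2 (34617049 to 34640743, minus) and Ifit1 (34640871 to 34650009, plus). All are annotated as protein-coding. The 1 other gene annotated inside the cluster, a processed pseudogene within the span of Ifit1bl2, overlaps 0 bases of its exons. Ifit1bl2 and Ifit1 are transcribed away from each other, with 127 bases between their annotated starts.

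The promoter windows of 5 members show what this arrangement looks like in sequence. They run from 250 bases before to 50 bases after a RefSeq transcript start (GRCm38.p6) and are written 5′ to 3′ on the gene's strand. Capitals mark matches to the ISRE (interferon-stimulated response element) letters, searched on both strands: GAAA, any 2 bases and GAAA again, or the reverse complement TTTC, any 2 bases and TTTC. None of the matches shown overlaps another.

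Ifit1, chr19:34640639-34640938, plus strand: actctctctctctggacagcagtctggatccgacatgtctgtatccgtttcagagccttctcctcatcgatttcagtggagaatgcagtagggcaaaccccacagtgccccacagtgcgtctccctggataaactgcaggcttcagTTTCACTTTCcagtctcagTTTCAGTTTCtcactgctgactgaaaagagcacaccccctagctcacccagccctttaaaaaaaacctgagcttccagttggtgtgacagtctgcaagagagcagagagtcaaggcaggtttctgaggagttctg

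Ifit3, chr19:34583279-34583578, plus strand: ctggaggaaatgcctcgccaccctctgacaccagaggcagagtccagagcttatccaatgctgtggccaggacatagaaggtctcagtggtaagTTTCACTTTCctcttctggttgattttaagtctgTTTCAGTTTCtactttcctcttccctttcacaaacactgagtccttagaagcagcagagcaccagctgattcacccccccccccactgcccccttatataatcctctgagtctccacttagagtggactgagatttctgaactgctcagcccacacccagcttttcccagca

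Ifit3b, chr19:34607707-34608006, plus strand: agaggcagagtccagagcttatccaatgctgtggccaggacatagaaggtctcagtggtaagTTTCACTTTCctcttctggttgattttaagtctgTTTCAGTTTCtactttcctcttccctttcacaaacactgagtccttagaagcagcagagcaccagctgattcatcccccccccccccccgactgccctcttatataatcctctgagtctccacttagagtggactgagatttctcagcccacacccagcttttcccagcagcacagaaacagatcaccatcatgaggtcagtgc

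Ifit1bl1, chr19:34601919-34602218, minus strand: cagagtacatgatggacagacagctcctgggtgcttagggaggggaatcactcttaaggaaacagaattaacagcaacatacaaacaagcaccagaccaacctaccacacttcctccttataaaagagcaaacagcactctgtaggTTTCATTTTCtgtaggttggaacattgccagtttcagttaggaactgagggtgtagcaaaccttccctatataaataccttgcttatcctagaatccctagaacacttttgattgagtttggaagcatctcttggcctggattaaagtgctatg

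Ifit2, chr19:34550444-34550743, plus strand: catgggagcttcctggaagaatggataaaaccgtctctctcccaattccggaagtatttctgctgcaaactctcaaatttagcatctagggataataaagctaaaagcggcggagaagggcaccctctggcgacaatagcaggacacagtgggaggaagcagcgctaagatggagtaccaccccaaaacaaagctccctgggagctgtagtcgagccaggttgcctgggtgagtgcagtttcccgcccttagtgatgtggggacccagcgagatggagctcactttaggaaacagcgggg

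The windows of Ifit1, Ifit3 and Ifit3b each held 2 matches, and those 2 were the same words, TTTCACTTTC and TTTCAGTTTC, in the same order. In Ifit3 and Ifit3b the windows were 75.9% identical over their whole alignment. The window of Ifit1bl2 on the opposite strand covers the same 2 sites as that of Ifit1, at chr19:34640785-34640794 and chr19:34640804-34640813, so that 1 pair of sites stands between both starts. Ifit1bl1 had 1 match in each of its 2 windows, TTTCATTTTC. Neither of the 2 windows of Ifit2 and not the second of Ifit1bl2 held these letters. The RefSeq starts of these second windows lay 378 (Ifit2) and 10932 bases (Ifit1bl2) from the nearest GENCODE start. A window without a match does not show that the gene lacks such sites elsewhere. Among all 32851 promoter windows of the table, 3.44% held a match and 0.225% held at least 2. Counted by gene, a match was held by 4.06% of the tested genes with a window. Among the 571 genes with a window called lower, which include the members, it was 14.9%. A match is a description of letters and not evidence of binding.

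The members also differ in how well their reads can be told apart. Ifit3 and Ifit3b have coding sequences of 1209 bases each that are 99.1% identical, and Ifit1bl1 and Ifit1bl2 are 87.4% identical. Ifit1 was 74.0% identical to Ifit1bl1, and Ifit2 at most 56.5% identical to any other member. Of the 50-base windows in Ifit3 transcripts, 51.2% also occur in Ifit3b, and 44.5% of those in Ifit3b occur in Ifit3. Ifit2 shared 0% with any other gene, and the remaining members shared 6.45% to 9.34%. The sources used here give neither read length nor the handling of multiply mapped reads. The split between Ifit3 and Ifit3b is therefore uncertain, and so is the level of either against other members.

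The mutant libraries held 27282354 and 28517346 recovered reads and the wt libraries 30026622 to 33119434, and a count of 0 allows up to 0.11 CPM (reads scaled to the library total; counting error only). The targeted gene Samhd1 read 1279 and 1431 normalized counts in mutants 1 and 2, where wt 1 to 3 read 17823, 16777 and 18274. Cgas read 184 and 85.1 in the mutant libraries, and 974, 1211 and 968 in the wt libraries. The share of reads on Rn18s was 4.04% to 5.28% in the mutants and 0.599% to 1.64% in wt. All 8 general macrophage markers were detected, and their summed level was 16377 to 25640 CPM in the mutants and 9759 to 11493 in wt. Lyz2 made up most of the mutant sum (10258 and 17195 CPM, against 4177 to 4982 in wt) and Mertk was also called higher, while Fcgr1 was called lower (120 and 149 CPM in the mutants, 373 to 417 in wt). The 8 markers of large peritoneal macrophages summed to 1764 to 1943 CPM in the mutants and 1608 to 1644 in wt, nearly all of it Cd93. Of these 8, Icam2 was called lower, and Gata6 and Timd4 had 0 reads in every library. Of other cell types, the 7 B cell markers summed to 197 to 225 CPM in the mutants and 93.6 to 118 in wt, mostly Ighm, which was called higher. The 5 neutrophil markers summed to 215 to 270 CPM in the mutants and 101 to 139 in wt, and the 5 plasmacytoid dendritic cell markers to 169 to 235 in the mutants and 131 to 150 in wt. Of the neutrophil markers only Mmp8 was called (143 and 150 CPM in the mutants, 50.2 to 62.3 in wt). S100a8 (7.82 and 11.7 CPM in the mutants, 7.59 to 11.6 in wt) and S100a9 (8.42 and 9.90 in the mutants, 8.24 to 11.9 in wt) overlapped between the groups, and Ly6g was at most 0.0351 CPM. The plasmacytoid sum was nearly all Tcf4. Summed T and NK cell markers reached at most 0.596 CPM in any library, mast cell markers 2.54 and mesothelial markers 0.0367. The part of Rn18s and of other cells in the IFIT values was not tested. In bulk RNA, fewer expressing cells and less RNA per cell cannot be told apart.

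IFIT transcripts were far less abundant in mutant macrophages. All 6 members passed the test and were lower, 5 of them by at least 4-fold. Across all 14977 genes tested, 4.89% were lower by the same test (limma on log2(normalized count + 2), Benjamini-Hochberg adjusted p under 0.05), 8.6% were called in either direction, and 0.748% were lower by at least 4-fold. All 6 members were also called lower by edgeR, which called 4.47% of genes lower, and by DESeq2, which called 8.73%. The members' median log2 fold change, mutant over wt, was -2.49, against 0.00033 for all genes tested. In each member both mutant libraries lay below every wt library, which held for 26.9% of genes tested. As a family they took 97.8 and 131 CPM in mutants 1 and 2. The wt libraries gave them 715, 771 and 709.

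**Figure D1:**
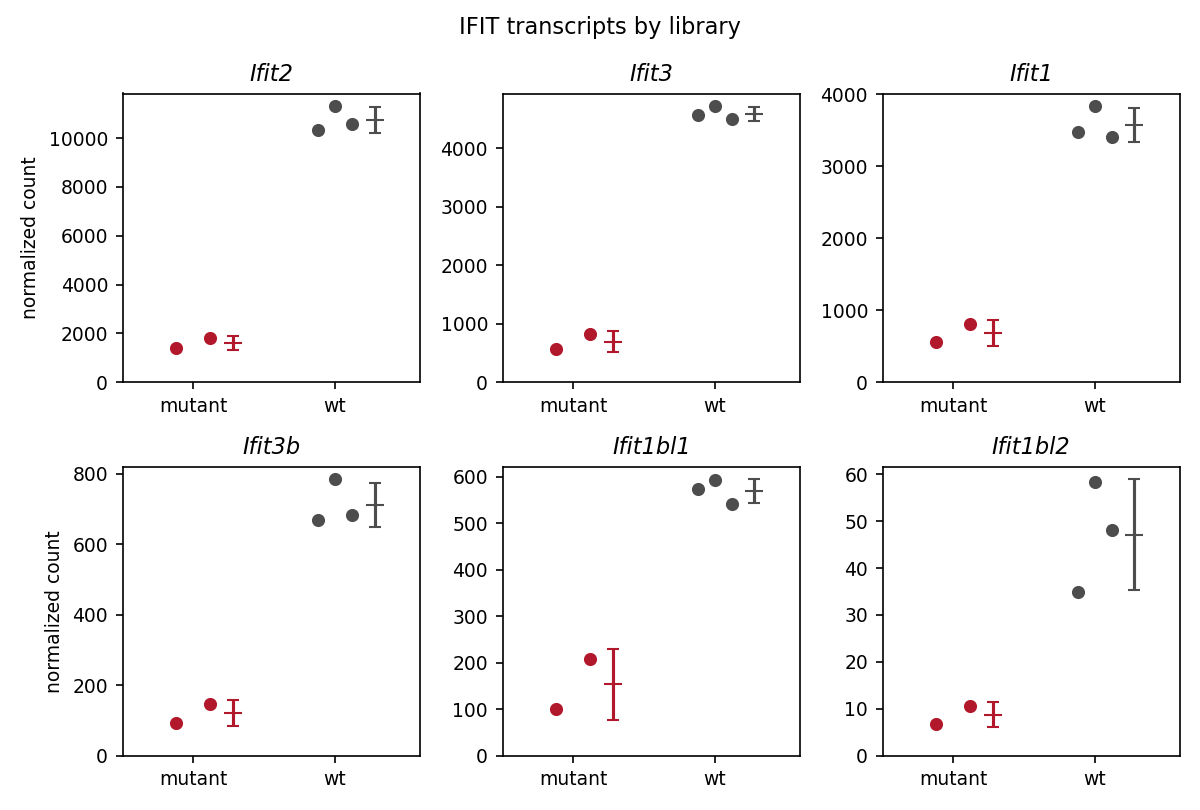
Normalized count (y axis, linear, from 0) of each IFIT gene in the 2 mutant libraries (red) and the 3 wt libraries (grey). Points are libraries, and bars beside them are mean ± SD. Ifit2 stands at 1403 and 1815 in the mutants and at 10312 or more in wt, and in none of the 6 panels do the groups overlap.

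Ifit2, which restricts several RNA viruses in mice, had the most reads of the members in each library, not corrected for length. It read 1403 and 1815 normalized counts in mutants 1 and 2, and 10312, 11325 and 10571 in wt 1 to 3. The groups did not overlap, and each wt library was far above both mutants. This is a log2 fold change of -2.75 (SE 0.118, limma adjusted p = 0.000127), or 6.71-fold lower.

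Ifit3, the partner that stabilises IFIT1 in human cells, read 566 and 815 in the mutants and 4564, 4726 and 4492 in wt. Its wt libraries lay close together, and both mutants were far below them. Its log2 fold change came to -2.75 (SE 0.150, limma adjusted p = 0.000286). Its near copy Ifit3b read 93.9 and 147 in the mutants and 668, 783 and 681 in wt, again without overlap, with a log2 fold change of -2.57 (SE 0.197, limma adjusted p = 0.00114). Since reads of this pair may be exchanged, their sum was also taken. It came to 660 and 962 in the mutants and 5232, 5509 and 5173 in wt, a difference of -2.73 in log2(sum + 2).

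Ifit1, the cap-sensing member, read 559 and 814 in the mutants and 3479, 3841 and 3404 in wt. Both mutants were below every wt library by a wide margin. Ifit1 thus had a log2 fold change of -2.40 (SE 0.160, limma adjusted p = 0.000605), or 5.28-fold lower.

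The Ifit1b-like genes, paralogues of Ifit1, had the least secure calls. Ifit1bl1 read 99.8 and 207 in the mutants and 573, 593 and 541 in wt, with a log2 fold change of -1.97 (SE 0.284, limma adjusted p = 0.0138), or 3.91-fold lower. The mutants differed from each other by more than the wt libraries did, but neither reached the wt range. Ifit1bl2 read 6.85 and 10.6 in the mutants and 34.8, 58.3 and 48.2 in wt, which are 7 and 10 reads against 42, 65 and 52. It entered the test mainly through its wt values. Its log2 fold change came to -2.19 (SE 0.314, limma adjusted p = 0.0135). Both genes lost the call when wt 1, wt 2 or wt 3 was left out: Ifit1bl1 then had limma adjusted p-values of 0.0886, 0.0719 and 0.0782, and Ifit1bl2 of 0.0508, 0.0624 and 0.0843. The remaining 4 members were called in each of these fits. In the authors' deposited table, all 6 members are called as well (7.45% of the tested genes are called lower there). The log2 fold changes there, wt over mutant, are 2.33 for Ifit2, 2.24 for Ifit3, 1.96 for Ifit3b, 1.95 for Ifit1, 1.15 for Ifit1bl2 and 1.13 for Ifit1bl1. Each is smaller in size than the change found here. The authors' values may draw on libraries not analysed here.

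Levels were next compared per length, as reads per kilobase of annotated exon, scaled to the library total (RPKM). In the mutants Ifit2 stood at 14.4 ± 2.21 RPKM (SD, n = 2) and Ifit3 at 13.9 ± 3.18, followed by Ifit1 at 9.05 ± 2.14, Ifit1bl1 at 2.37 ± 1.12, Ifit3b at 2.11 ± 0.598 and Ifit1bl2 at 0.0909 ± 0.0254. In wt the levels were 98.9 ± 4.71 for Ifit2 (SD, n = 3), 95.2 ± 2.72 for Ifit3, 48.7 ± 3.23 for Ifit1, 12.9 ± 1.13 for Ifit3b, 9.11 ± 0.455 for Ifit1bl1 and 0.506 ± 0.125 for Ifit1bl2. Ifit3 and Ifit3b levels may be too low if reads shared by the pair were dropped, so their place against other members is uncertain. As measured, Ifit2 and Ifit3 did not differ beyond their spread in either group. The remaining neighbours in the wt order were separated by more than their SDs. Ifit1 lay below Ifit3 in both mutants (7.54 and 10.6 RPKM for Ifit1, 11.6 and 16.1 for Ifit3). In the mutants Ifit1bl1 and Ifit3b overlapped and changed places between the libraries, with Ifit1bl1 at 1.58 and 3.16 RPKM and Ifit3b at 1.68 and 2.53. Per length, Ifit2, Ifit3 and Ifit1 thus made up most of the family in both groups. Ifit1 took 21.4% and 21.8% of the family's RPKM in the mutants, against 18.3%, 18.8% and 17.9% in wt.

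Ratios between members were then compared between the groups, in a design too small to reach 0.05. For each of the 15 pairs, the log2 ratio of normalized counts + 2 within a library was compared between genotypes by an exact permutation test (two-sided), whose smallest possible p is 0.2 with 2 and 3 libraries. The log2 ratio of Ifit1 to Ifit2 was -1.33 and -1.15 in the mutants and -1.57, -1.56 and -1.63 in wt, a difference of 0.35 (exact permutation p = 0.2, adjusted over the 15 pairs 0.273). The ratio of Ifit1 to Ifit3 was -0.02 and -0.0019 in the mutants, close to equal counts, and -0.39, -0.30 and -0.40 in wt. The largest shift among the pairs was that of Ifit1bl1 to Ifit3, at -2.48 and -1.97 in the mutants and -2.99, -2.99 and -3.05 in wt, a difference of 0.79. By contrast, Ifit2 to Ifit3 was 1.31 and 1.15 in the mutants and 1.18, 1.26 and 1.23 in wt, overlapping, with a difference of 0.0065 (exact permutation p = 1). The pairs share members, so they are not separate pieces of evidence.

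**Figure D2:**
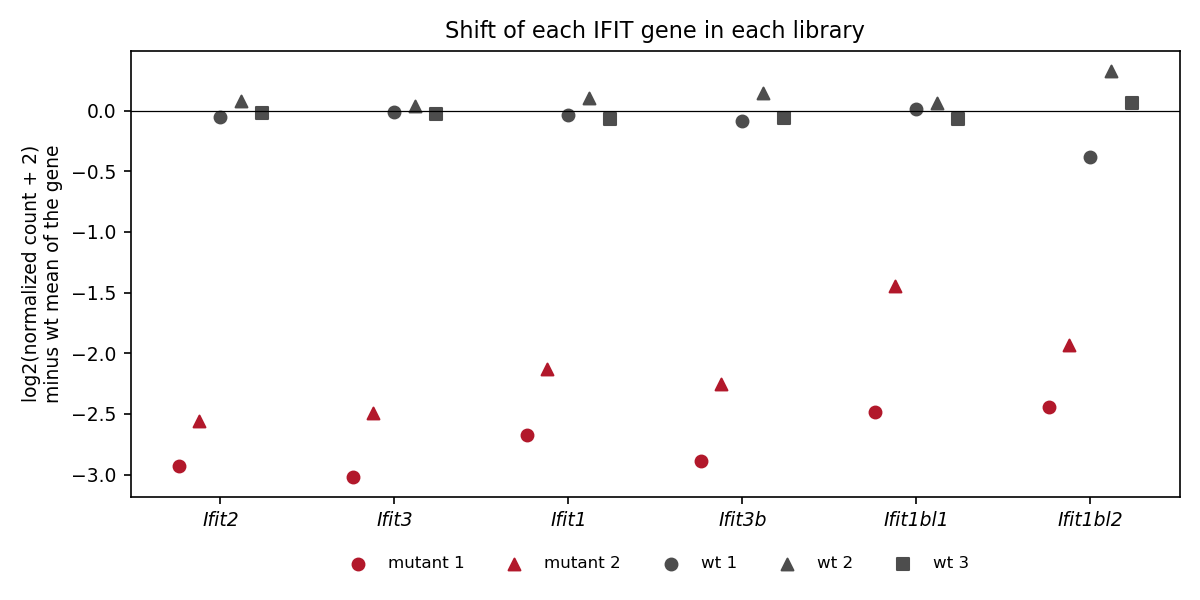
Shift of each IFIT gene in each library (y axis, log2(normalized count + 2) minus the gene's wt mean), with mutant libraries in red and wt libraries in grey. Circles, triangles and squares mark replicates 1, 2 and 3. In each gene mutant 2 stands above mutant 1, and wt 2 above wt 1 and wt 3.

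Mutant 2 kept more IFIT RNA than mutant 1, in 6 of 6 members. Mutant 2 over mutant 1 was 1.29 for Ifit2, 1.44 for Ifit3, 1.46 for Ifit1, 1.55 for Ifit1bl2, 1.56 for Ifit3b and 2.08 for Ifit1bl1. Relative to the wt mean, Ifit1bl1 stood at 17.5% in mutant 1 and 36.4% in mutant 2, and Ifit2 at 13.1% and 16.9%. The 95% Poisson intervals cover counting error only and are on raw reads, not scaled for depth. They overlapped for Ifit1bl2 (2.81 to 14.4 and 4.80 to 18.4 reads). For Ifit3b they barely met (77.8 to 117 reads in mutant 1 and 116 to 163 in mutant 2). One read equals 0.979 normalized counts in mutant 1 and 1.06 in mutant 2, so the Ifit3b overlap does not hold once depth is scaled. The intervals did not overlap for the other 4 members, as for Ifit1 (571 reads, 525 to 620, and 766 reads, 713 to 822) and Ifit1bl1 (102 reads, 83.2 to 124, and 195 reads, 169 to 224). With 1 library on each side this difference has no replicate check. Among all 14977 genes tested, 50.6% read higher in mutant 2 than in mutant 1, with a median log2 difference of 0.0045. Among the 732 genes called lower the share was 34.2%, and their median log2 difference was -0.12. In wt, wt 2 was the highest library for all 6 members.

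The genes upstream of the IFITs differed in how far they moved. The counts on each list stand beside 4.89% lower and 3.71% higher by limma among all genes tested. Of 11 sensors and adaptors, 5 were lower and none of the others passed. They were the RNA sensor genes Dhx58 (log2 fold change -1.72), Tlr3 (-1.48), Ddx58 (-1.46) and Ifih1 (-1.25), and Cgas (-3.04), the gene that carries the knock-in. Of 6 receptor, kinase and ISGF3 genes listed, 2 were lower and 1 was higher, with a list median of 0.04. Stat2 read 2604 and 1583 normalized counts in the mutants and 6781, 8364 and 7099 in wt, without overlap (log2 -1.86, SE 0.210, limma adjusted p = 0.00613). Irf9 also fell (-0.53). Ifnar1 rose by 0.40, while the kinases Jak1 (0.16, limma adjusted p = 0.271) and Tyk2 (-0.09, limma adjusted p = 0.444) did not pass. The Irf9 call was lost when wt 1 or wt 3 was left out (limma adjusted p = 0.0764 and 0.0749), and the Ifnar1 call when any wt library was (0.139, 0.0641 and 0.136).

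Of 4 IRF genes, Irf7 and Irf1 fell, where 4.89% of all genes tested were called lower by limma. Irf7, induced by interferon and required for its amplification, fell to 1260.4 and 1256 in the mutants, against wt values of 18449, 16214 and 17987 (log2 -3.80, limma adjusted p = 1.44e-05), further than any IFIT gene. Its mutant values were nearly equal, unlike those of the IFITs. Irf1 fell by 0.38, a call lost when any wt library was left out (limma adjusted p = 0.158, 0.101 and 0.152 without wt 1, wt 2 and wt 3). Irf3, which can drive IFIT genes without interferon, was at 988 and 1030.2 in the mutants and 982 to 986 in wt (log2 0.04, limma adjusted p = 0.765). Of 4 feedback genes, the ubiquitin-like Isg15 (-3.04), its protease Usp18 (-2.87) and Socs1 (-1.02) fell, with a list median of -1.94. Leaving out wt 1, wt 2, wt 3 or mutant 2 ended the Socs1 call (limma adjusted p = 0.151, 0.123, 0.0843 and 0.0515).

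Genes that decide which RNA ends the IFIT proteins can bind, and their translation partners, were mostly not called. The same holds for most genes: limma called 8.6% of all genes tested in either direction, and both lists lay near that share. Of 10 cap and 5′ end enzymes, only the decapping enzyme Dcp2 fell by the limma test (-0.59, limma adjusted p = 0.0442), a call that ended on leaving out wt 1, wt 2 or wt 3 (0.147, 0.147 and 0.158) and with reads scaled without Rn18s (0.0653). The cap 2′-O-methyltransferase Cmtr1 read 96.9 and 101 in the mutants and 148, 133 and 134 in wt, without overlap (log2 -0.48, limma adjusted p = 0.0814). Cmtr2 (0.13, limma adjusted p = 0.469) and the cap adenosine methyltransferase Pcif1 (-0.03, limma adjusted p = 0.825) did not pass. Of 13 subunits of initiation factor eIF3 tested, 0 passed limma, while 3 lower and 1 higher had an unadjusted p under 0.05. By edgeR 0 were called, and by DESeq2 1 lower. Eif3e and Eif3c, named as IFIT partners in earlier work, had log2 fold changes of 0.14 and -0.13. In all, 13 of 48 genes tested on these lists were lower and 1 was higher, beside 4.89% lower and 3.71% higher among all genes. The 13 include Cgas, the gene that carries the knock-in.

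**Figure D3:**
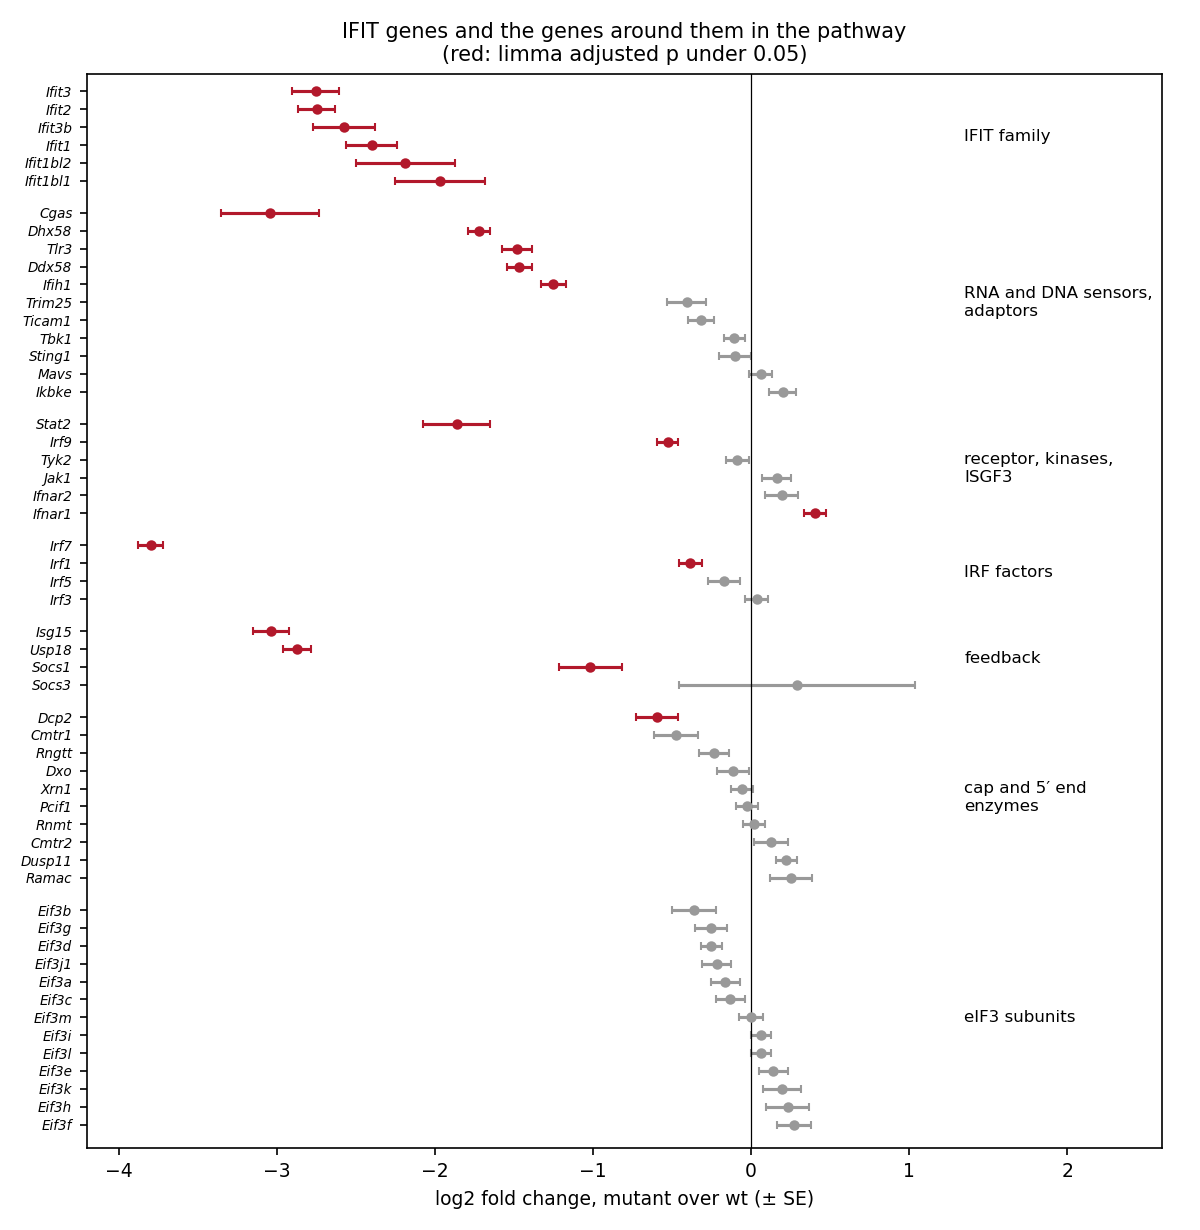
Log2 fold change, mutant over wt (x axis, points, bars ± SE), of the 6 IFIT genes and of the 48 genes of the surrounding pathway tested, in blocks by role. Red points passed limma at an adjusted p under 0.05, and grey points did not. IFIT genes lie between -2.75 and -1.97, the sensors that fell other than Cgas between -1.72 and -1.25, and eIF3 subunits around 0.

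None of the flanking genes measured was called lower by limma. The 6 nearest protein-coding genes on each side were taken by position, and 9 of these 12 had enough reads to test. By limma 0 were lower, 3 at an unadjusted p under 0.05, 0 by edgeR and 1 (Ch25h) by DESeq2. Limma called 4.89% of all genes tested lower and 3.71% higher, so 0 of 9 lower is near the share of all genes. Lipa, the lysosomal acid lipase gene 23220 bases from the cluster, read 36528 and 35517 in mutants 1 and 2 and 38960.5, 37459 and 38430.4 in wt (log2 -0.09, limma adjusted p = 0.454). Ch25h, the interferon-inducible cholesterol 25-hydroxylase gene, read 85.1 and 71.2 in the mutants and 119, 218 and 154 in wt, without overlap but with a wide wt range (log2 -1.01, limma adjusted p = 0.0663). On the other side, Slc16a12, 18394 bases away, had 0.74 (limma adjusted p = 0.354) and Pank1 0.21 (limma adjusted p = 0.376). The death receptor gene Fas was the 1 flanking gene called, higher by 0.93 (limma adjusted p = 0.0248), a call that ended on leaving out wt 1, wt 2 or wt 3 (0.11, 0.0974 and 0.12). Without mutant 1, 3 flanking genes were called lower.

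**Figure D4:**
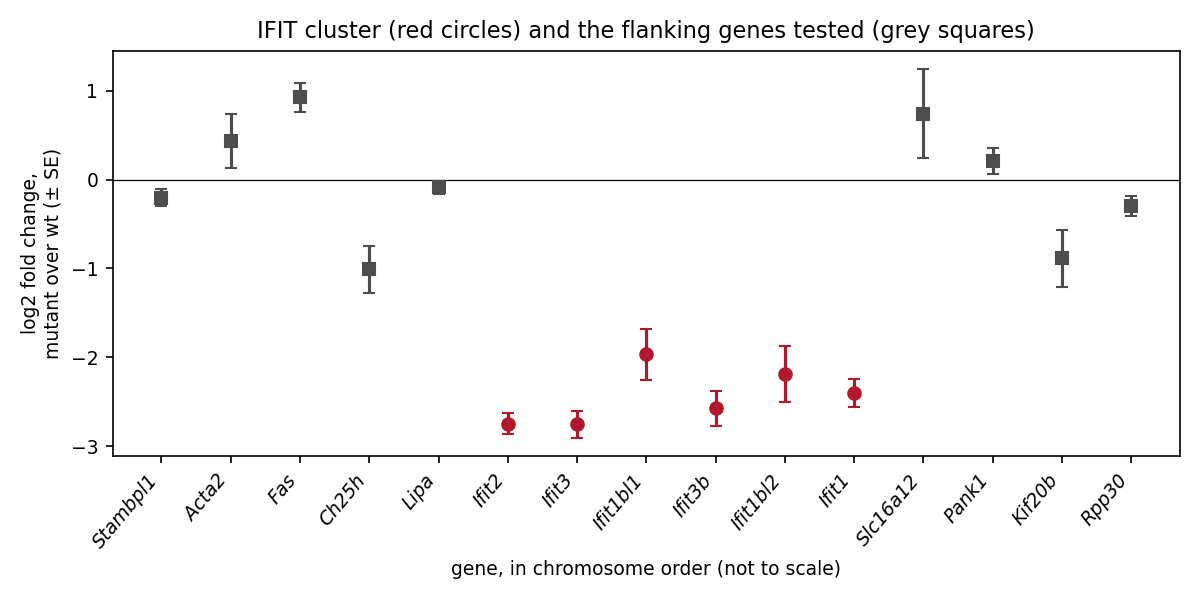
Log2 fold change, mutant over wt (y axis, ± SE), of the 6 IFIT genes (red circles) and the 9 flanking genes tested (grey squares), in chromosome order and not to scale. IFIT genes lie at or below -1.97, and the lowest flanking gene, Ch25h, at -1.01.

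The genes whose profile over the 5 libraries lay nearest to the members' mean were AW011738, Mx1, Gm6545, Enpp4 and Misp. In mutants 1 and 2 Gm6545 had 5 and 10 reads and Misp 3 and 7, so their profiles rest on few reads there. The measure was the root-mean-square distance in log2(normalized count + 2) relative to each gene's wt mean, and it ran from 0.122 for AW011738 to 0.150 for Misp. The members themselves lay between 0.0444 (Ifit1) and 0.333 (Ifit1bl1) from that mean. Mx1, a dynamin-like antiviral GTPase, read 361 and 476 in the mutants and 2463, 2712 and 2535 in wt, higher in mutant 2 than in mutant 1 as in the IFITs. Enpp4, an ectoenzyme that splits dinucleotides, read 16.6 and 23.4 in the mutants and 128, 144 and 134 in wt. These genes were ranked by the same values that the comparison uses, so their fall is no separate result.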

How the data were processed

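Per the labels' protocols, mRNA libraries of sorted cells keep the strand. The submitters' processing notes name STAR, featureCounts, Subread, DESeq 1.6.1 and mm10; the sources used here state no further settings. The deposited signal is a normalized count: 100% of the values in each library were whole multiples of a fixed step within 0.001, so reads were recovered by dividing by that step. The authors' deposited log2 fold change (wt over mutant), p-value and adjusted p-value are quoted only where named. The authors' mean was above 0 for 3266 of the 3266 genes with 0 reads in all 5 libraries, so their values may draw on libraries not analysed here. The table used here covers chromosomes 1 to 19.

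Limma 3.58.1 (R 4.3.3, intensity trend, two-sided) was run on log2(normalized count + 2), which understates changes of low genes. A gene entered with 10 or more in 2 libraries. Benjamini-Hochberg adjustment ran over all genes tested. Since the files hold normalized values, edgeR 4.0.16 (669 genes lower) and DESeq2 1.42.0 on recovered reads are alternatives. The fits were also run on simulated counts drawn with the same spread in both groups. That run does not show how they perform with the spread of these libraries. Positions come from GENCODE M21 (GRCm38), matched by Ensembl identifier for 97.1% of genes. Deposited starts equalled these for 673 genes, and deposited coordinates were not used. Promoters come from RefSeq (GRCm38.p6), in which all 6 members matched by symbol. Replicates differed by more than sampling noise. The mean chi-square per gene was 53.7 between the 2 mutants and 12.6 to 22.9 between pairs of wt libraries. The labels do not state that replicates are separate animals, so p-values cover only the spread among these libraries. The wt libraries differ in sex or age. The mutants share both, and the source of the spread between them was not tested.

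The members and lists were chosen with earlier results of these data known. Genes named are the members, the targeted genes, members of 6 pathway lists and of the cell type marker lists (chosen after their values were seen), the 12 flanking genes and the 5 nearest profiles. A pathway gene was left out of its list and the counts, and is not reported here.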

Additional observations from a re-analysis of the deposited data

How the results depend on the processing

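All 6 IFIT genes stayed lower in 14 alternatives (scaling, pseudocount, filter, prior, edgeR, DESeq2, replicate block, each library left out, and scaling without Rn18s, chosen after seeing the data). Ifit1, Ifit2, Ifit3 and Ifit3b were called in all 14, and Ifit1bl1 and Ifit1bl2 in 10. With a library left out, the log2 fold change was -2.49 to -1.45 for Ifit1bl1 and -2.44 to -1.93 for Ifit1bl2. A lone mutant library is then assumed to vary like the wt libraries. Without each library in turn, 29 to 2062 genes were called higher and 173 to 2929 lower, against 556 and 732 with all. The highest counts came without mutant 1 and the lowest without wt 1. Pathway genes called higher then numbered 0 to 10, flanking genes called lower 0 to 3 and higher 0 to 1. DESeq2 called 1121 genes higher and 1308 lower, with 2 pathway genes higher and 1 flanking gene lower.

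The replicate numbers share only a number: same-numbered libraries correlated at -0.23 and -0.36, and with 2 mutants these deviations mirror each other. With the replicate block, 6 genes were called higher and 75 lower, 6 pathway genes lower and 0 higher, and 0 flanking genes higher. Ifit1bl1 (-2.0, limma adjusted p = 0.110) and Ifit1bl2 (-2.16, limma adjusted p = 0.144) were not called there.

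The ratio of Ifit1bl1 to Ifit1bl2 (0.22) changed sign with a pseudocount of 8 (-0.21) and ran over -0.044 to 0.48 with a library left out. That of Ifit2 to Ifit3 ran over -0.071 to 0.084. The causes were not tested. Depth limits Ifit1bl2 most, with 7 and 10 reads in the mutants.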
